A study of Drosophila melanogaster with 2 samples.

Results

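The aminoacyl-tRNA synthetase genes were examined for binding of the forkhead transcription factor foxo in whole Drosophila melanogaster larvae. Members were the protein-coding genes whose symbol is a 3-letter amino acid name followed by RS, with -m appended for the mitochondrial enzymes. The rule found 32 genes among 13945 protein-coding genes, of which 17 were cytoplasmic and 15 mitochondrial by that suffix. It used no measured value. The chromatin immunoprecipitation sequencing (ChIP-seq) data came from larvae of the third instar in the wandering stage, when they leave the food before pupariation, with both sexes pooled. Both samples belonged to 1 group, biological replicates 5 and 6 of a line carrying foxo fused at its C-terminus to eGFP, and the fusion was precipitated with an antibody to GFP per the description, although the antibody label reads foxo. The labels name neither the promoter that drives the fusion nor whether endogenous foxo was present, and they give the age as unknown. Whole larvae mix all tissues, so a region bound in few cells and a region bound weakly in many cannot be told apart. There was no second genotype, stage or treatment, so all comparisons are between genes.

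Aminoacyl-tRNA synthetases join each amino acid to its transfer RNA, the step that sets the genetic code in protein synthesis. Cytoplasmic enzymes serve the ribosomes of the cytosol, and enzymes marked -m serve those inside mitochondria, although their genes too lie in the nucleus. Genes without the suffix are called cytoplasmic here by symbol alone, and some of them may also supply the mitochondrial enzyme. GlnRS, GlyRS, HisRS, LysRS and ThrRS had no -m counterpart among the members. Foxo is held in the cytoplasm when insulin signalling is active and enters the nucleus when it is low, where it acts on genes of growth, stress resistance and metabolism.

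The sequences under 4 of the highest regions at synthetase genes are shown first, because these regions are the ones the results below turn on. Each run is the reference sequence of Release 6 (dm6) from RefSeq, 5′ to 3′ on the strand of the gene, limited to bases within 100 bp of the summit and free of untranslated and coding sequence. Capitals mark a match, on either strand, to 1 of the 7 consensus sequences searched. LeuRS-m lies at chr3L:4824947-4825147, IleRS at chr3L:22288518-22288664, SerRS-m at chr3R:15340565-15340666 and GlyRS at chr3L:15094093-15094247, all on the plus strand.
LeuRS-m: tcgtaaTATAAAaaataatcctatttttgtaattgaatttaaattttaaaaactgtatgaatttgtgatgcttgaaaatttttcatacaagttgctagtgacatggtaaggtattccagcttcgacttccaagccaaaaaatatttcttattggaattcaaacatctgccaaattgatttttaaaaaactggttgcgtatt
IleRS: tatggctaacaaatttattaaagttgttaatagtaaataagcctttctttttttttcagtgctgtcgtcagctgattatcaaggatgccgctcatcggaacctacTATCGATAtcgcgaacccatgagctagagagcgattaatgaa
SerRS-m: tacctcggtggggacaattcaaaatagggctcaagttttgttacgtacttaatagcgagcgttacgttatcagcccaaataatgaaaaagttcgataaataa
GlyRS: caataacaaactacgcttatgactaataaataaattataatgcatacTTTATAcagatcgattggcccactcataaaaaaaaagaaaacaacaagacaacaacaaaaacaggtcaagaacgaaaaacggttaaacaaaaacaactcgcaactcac

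The IleRS run holds the DNA replication-related element TATCGATA, a common element of promoters active in growing cells, and the LeuRS-m and GlyRS runs hold TATAAA, read on the opposite strand in GlyRS. The SerRS-m run holds none of the 7. The SerRS summit is not printed, since its window has no stretch long enough that is free of untranslated and coding sequence. None of the 4 printed runs, nor the 201-base SerRS window, holds the FOXO core TGTTTAC. Such matches are uncommon, so absence from so few windows says little. Within 100 bp of the strongest pooled summit, TGTTTAC was at 1 of 22 members (4.55%), against 7.24% of all genes with a pooled region. For TATAAA it was 9 of 22 (40.9%), against 30.6%, and for TATCGATA 3 of 22 (13.6%), against 6.62%. The others were GGTCACACT at 2 (9.09%, against 3.25%) and CACGTG at 1 (4.55%, against 2.68%). GAGAGAG and TTGCATCA were at 0, against 5.76% and 0.59%.

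Synthetase genes carried foxo peaks of the stringent list about as often as other genes. That list was the authors' set passing the irreproducible discovery rate (IDR), 1427 peaks with authors' signals of 69.0 to 745. Of the 32 genes, 2 had an IDR summit no more than 1000 bp from a transcription start site (TSS) (6.25%, 95% Clopper-Pearson interval 0.766 to 20.8), against 7.71% of all protein-coding genes. The pair comprised 1 of 17 cytoplasmic genes, SerRS (5.88%), and 1 of 15 mitochondrial genes, LeuRS-m (6.67%). The share lies near the background, so the IDR list does not set the family apart. The 1427 IDR peaks are exactly the top of the list pooled from both replicates when that is sorted by signal, so a place among them followed pooled signal.

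SerRS, which charges serine transfer RNA in the cytosol, had an IDR peak directly over its start. The gene (FBgn0031497) lies on the minus strand at chr2L:3035493-3037403 (dm6). The peak at chr2L:3037204-3037583 had a pooled signal of 78.2 and ranked 1036 in the pooled list. Its summit lay 9 bp downstream of a SerRS TSS, within the SerRS 5′ UTR and an intron of CG17260. CG17260 runs the other way, and its nearest upstream TSS lies 8 bp from that of SerRS, so the peak covers both starts and cannot be assigned to either. At the same site replicate 5 had a signal of 31.9 (rank 1672) and replicate 6 a signal of 51.0 (rank 864). The signals of different lists need not share a scale, so ranks are the values to compare. Replicate 5 alone would place the site outside its own 1427 highest regions.

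LeuRS-m, the mitochondrial leucyl enzyme, had the highest signal of the family, but not at its own start. The gene (FBgn0027085) lies on the plus strand at chr3L:4825853-4829038. The peak at chr3L:4824857-4825236 had a pooled signal of 110 and ranked 422. It had a signal of 45.5 in replicate 5 (rank 709) and of 55.4 in replicate 6 (rank 674), so it was among the highest regions of each. Its summit lay 806 bp upstream of LeuRS-m, in an intron of Dhc64C, the cytoplasmic dynein heavy chain gene, and 640 bp from the Dhc64C TSS. The 2 genes start 166 bp apart in opposite directions. A second, lower pooled region lay 125 bp upstream of LeuRS-m, with a signal of 27.6 and rank 9682. AlaRS stood just outside the distance limit, with an IDR summit of signal 77.0 that lay 1071 bp upstream of AlaRS and 26 bp from a TSS of Rcd4.

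Just below the IDR threshold came SerRS-m, IleRS and GlyRS. SerRS-m, the mitochondrial seryl enzyme, had a pooled signal of 62.1 (rank 1850) with the summit 2 bp upstream of its TSS, in an intron of Nagk. It ranked 1163 in replicate 5, at a signal of 36.6, and 2617 in replicate 6, at 33.0. IleRS had a pooled signal of 61.4 (rank 1900) with the summit 47 bp upstream of its TSS and ranked 1302 in replicate 5 against 6071 in replicate 6. The IleRS site was thus among the 1427 highest of replicate 5 and far below them in replicate 6. By q-value the order was the other way, with −log10 q of 1.80 in replicate 5 and 2.26 in replicate 6. Only the latter meets a q-value of at most 0.01. GlyRS had a pooled signal of 57.7 (rank 2180), but the summit lay 949 bp upstream, in introns of Plp and sstn and nearer to the TSS of sstn, at 526 bp. It ranked 3362 in replicate 5 and 2029 in replicate 6.

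**Figure D1:**
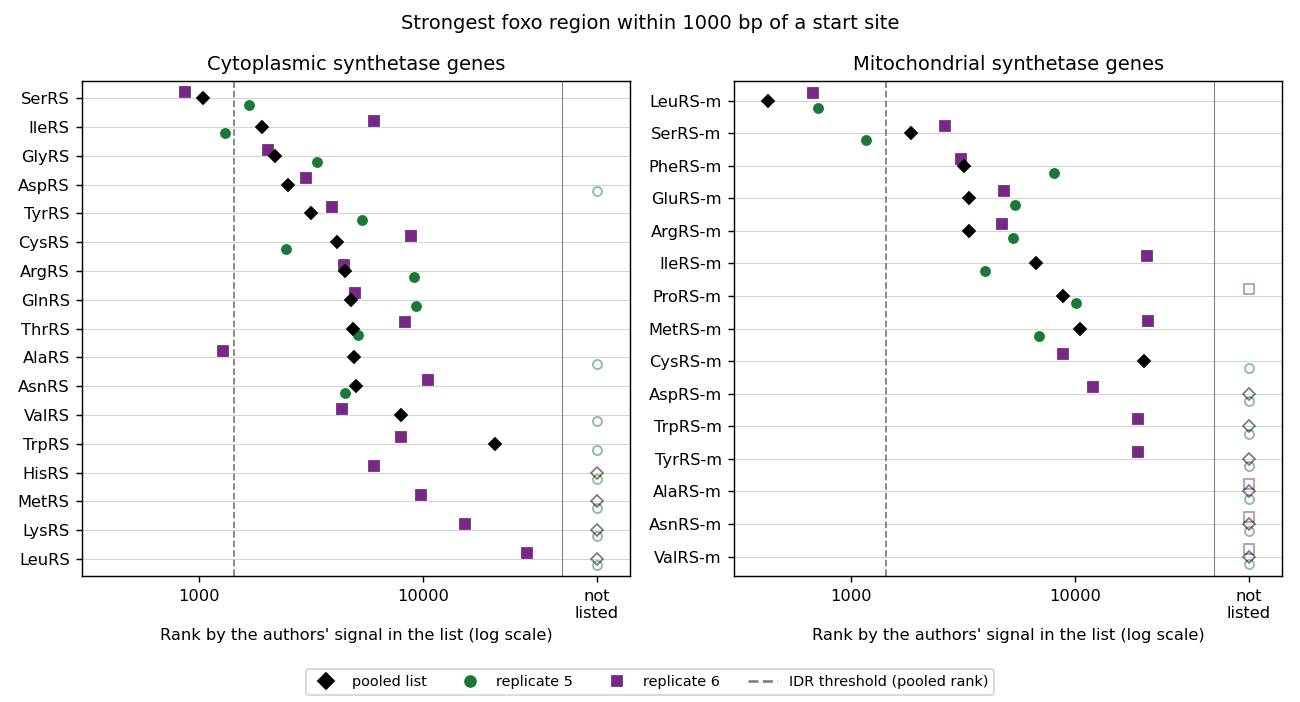
Rank of the strongest foxo region within 1000 bp of a start site of each synthetase gene (x axis, log scale; low rank is high signal) in the pooled list (diamonds), replicate 5 (circles) and replicate 6 (squares), with open symbols where no region was listed; the strongest region of a replicate need not be the pooled one. SerRS and LeuRS-m lie left of the dashed line at pooled rank 1427, and all 17 cytoplasmic genes have a filled square for replicate 6.

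Most synthetase genes had a weaker region in the longer, relaxed lists, which hold 30000 regions each and include background by the authors' own naming. Of the 32 genes, 22 had a pooled relaxed summit within that distance of a TSS (68.8%, 95% Clopper-Pearson interval 50 to 83.9), against 58.3% of all protein-coding genes. These were 13 of 17 cytoplasmic genes (76.5%) and 9 of 15 mitochondrial genes (60.0%). Pooled regions with a q-value of at most 0.01 lay at 10 members (31.2%, 16.1 to 50), against 17.5% of all genes, with 5 cytoplasmic members (SerRS, IleRS, GlyRS, AspRS and TyrRS) and 5 mitochondrial ones (LeuRS-m, SerRS-m, PheRS-m, GluRS-m and ArgRS-m). Counting genes with no region as below the list, the median strongest pooled signal was 33.8 over the members (the lower of the middle pair) and 17.9 over all protein-coding genes. In both replicates the member median was also above that of all genes, at 15.3 against 9.92 in replicate 5 and 18.4 against 11.4 in replicate 6. The replicate 5 member median was the lowest value among the 17 members listed there, so with fewer members listed it would fall below the list. That replicate listed 53.1% of members, against 54.6% of all genes. No test was made of these differences, because genes of a chosen list are not replicates of a condition.

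Below the genes already described, AspRS, the aspartyl enzyme, followed IleRS and GlyRS among the cytoplasmic genes, with a pooled signal of 54.2 (rank 2505). Its summit lay inside the gene, in an AspRS intron and the Nmda1 5′ UTR. It was 489 bp upstream of the nearest of 3 AspRS TSSs, an internal one, but 3 bp from a TSS of Nmda1. Replicate 5 listed no region there. PheRS-m, the mitochondrial phenylalanyl enzyme, followed SerRS-m at 48.5 (rank 3191), with its summit 75 bp upstream. It ranked 8084 in replicate 5 and 3094 in replicate 6. GluRS-m, the mitochondrial glutamyl enzyme, had 47.5 (rank 3351) with the summit 12 bp upstream, ranking 5387 in replicate 5 and 4840 in replicate 6. ArgRS-m was level with it, at 47.4 (rank 3364) and 87 bp upstream. The remaining pooled signals ran from 48.5 at TyrRS down to 17.3 at TrpRS among cytoplasmic genes, through CysRS at 43.0, ArgRS at 41.2, GlnRS at 40.1, ThrRS at 39.7, AlaRS at 39.4, AsnRS at 39.1 and ValRS at 30.6. Among mitochondrial genes they were 33.8 at IleRS-m, 29.0 at ProRS-m, 26.3 at MetRS-m and 17.7 at CysRS-m. From CysRS to AsnRS the signals spanned less than 4, while the CysRS site in that run ranked 2434 in replicate 5 and 13490 in replicate 6, so their order is not resolved. HisRS, LeuRS, LysRS and MetRS had no pooled region, nor did AlaRS-m, AsnRS-m, AspRS-m, TrpRS-m, TyrRS-m and ValRS-m.

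**Figure D2:**
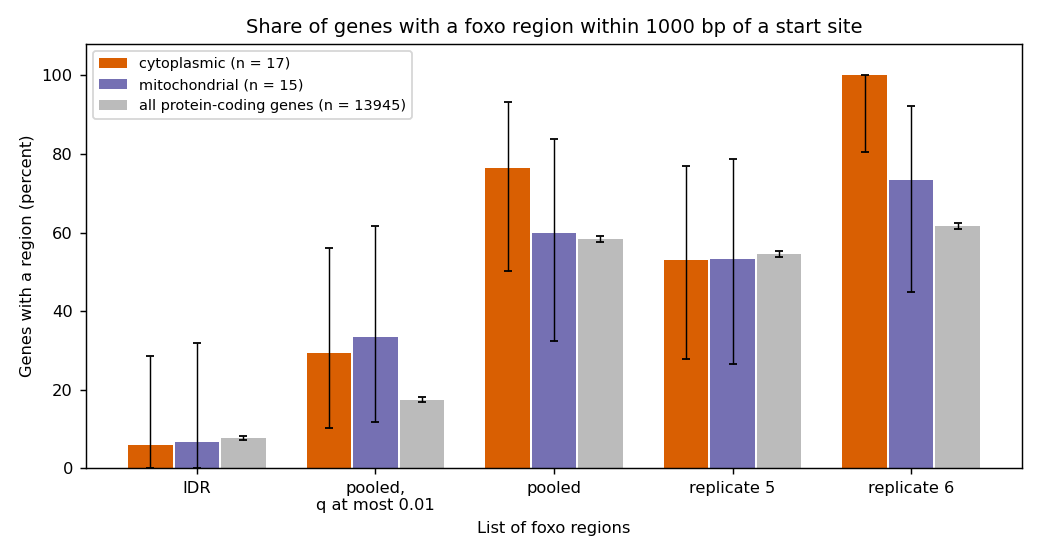
Percent of genes with a foxo region within 1000 bp of a start site (y axis) in each list (x axis) for 17 cytoplasmic and 15 mitochondrial synthetase genes and all 13945 protein-coding genes; error bars are 95% Clopper-Pearson intervals and cover counting error over genes only. Both synthetase bars are close to the grey bar in the IDR list, and the cytoplasmic bar reaches 100% in replicate 6 but 52.9% in replicate 5.

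The replicates differed most at the cytoplasmic enzymes. Replicate 6 listed a region within 1000 bp of all 17 cytoplasmic genes and 11 of 15 mitochondrial genes (73.3%), in all 28 of 32 (87.5%), against 61.6% of all protein-coding genes. Replicate 5 listed one at 9 of 17 cytoplasmic genes (52.9%) and 8 of 15 mitochondrial genes (53.3%), in all 17 of 32 (53.1%), against 54.6% of all genes. The excess of cytoplasmic over mitochondrial genes was therefore seen in replicate 6 and not in replicate 5. Some replicate 6 regions were low in its list. Of the cytoplasmic genes with no pooled region, HisRS ranked 6037 there, MetRS 9830, LysRS 15539 and LeuRS 29295 of 30000. A q-value of at most 0.01 in replicate 6 held at 10 of the 17 (58.8%, against 30.2% of all genes). Both replicates listed a region at 16 members (50%), against 43.6% of all genes. Only replicate 6 did so at 12 members (37.5%, against 18.0% of all genes) and only replicate 5 at 1 member, ProRS-m (3.12%, against 11.0%). AlaRS-m, AsnRS-m and ValRS-m had no region in any list (9.38% of members, against 26.2% of all genes).

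Replicate 6 held 6870 regions with a q-value of at most 0.01 and replicate 5 held 1061, although both lists had the same length. Library depth was unknown, so the part of depth in this contrast was not tested. At that q-value replicate 6 marked 15 members (46.9%, against 30.2% of all genes), 10 of them cytoplasmic and 5 mitochondrial. Replicate 5 marked 1 member, LeuRS-m (3.12%, against 5.84%). Taking the 1427 highest regions of each replicate instead, replicate 5 marked IleRS, LeuRS-m and SerRS-m (9.38%, against 7.44% of all genes). Replicate 6 marked AlaRS, SerRS and LeuRS-m (9.38%, against 7.60%), so LeuRS-m was the only member in both.

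AlaRS, the alanyl enzyme, had the best replicate 6 rank of the 12 genes listed by that replicate alone. Replicate 6 had a region of signal 44.2 at rank 1282, 170 bp upstream of AlaRS, and replicate 5 listed none within 1000 bp. The 22 pooled regions had a matching summit within 150 bp in both replicates at 16 genes, in replicate 6 alone at 5 and in replicate 5 alone at 1. No share over all genes is given for these matches, so they describe the members only. Of the 16, 9 ranked better in replicate 6 and 7 in replicate 5, so where both listed the site neither replicate led throughout.

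Summits at synthetase genes lay mostly just upstream of the start. The strongest pooled summit was upstream of the gene's nearest TSS at 20 of 22 genes (90.9%), against 72.4% of all 8132 genes with a pooled region, and within 250 bp at 16 of 22 (72.7%), against 56.6%. The median distance was 101 bp for synthetase genes and 200 bp for all genes. SerRS and MetRS-m alone had the summit downstream, at 9 bp and 99 bp. The AspRS summit counts as upstream by an internal TSS, although it lies inside the gene. By class the median distance was 145 bp for cytoplasmic and 87 bp for mitochondrial genes.

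**Figure D3:**
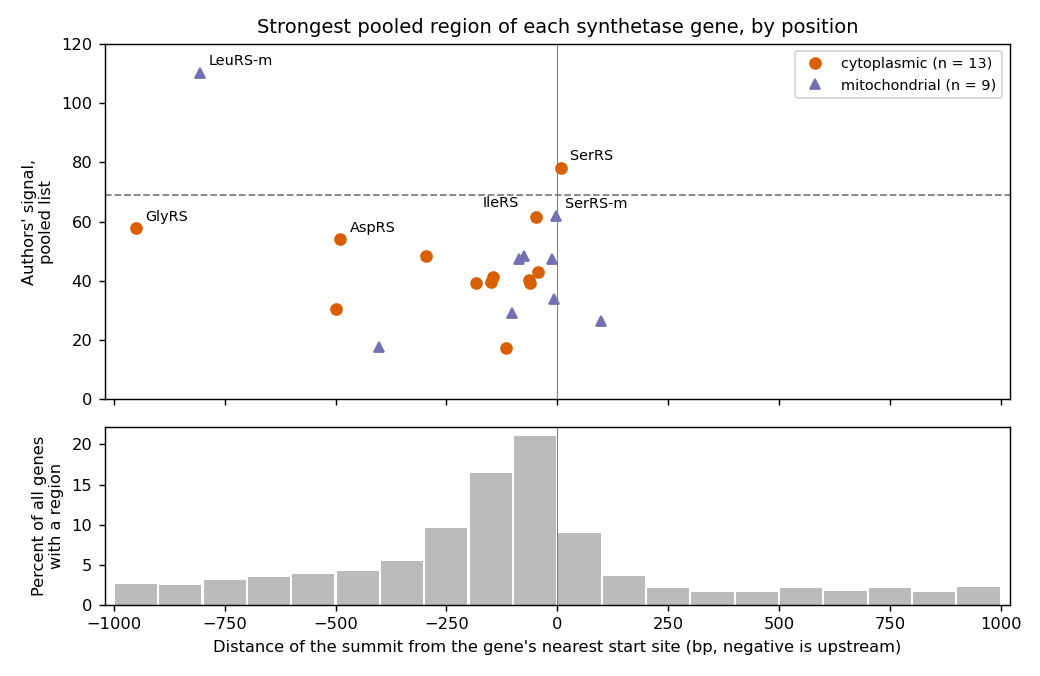
Authors' pooled signal of the strongest region of each synthetase gene (upper y axis) against the distance of its summit from the gene's nearest start site in bp (x axis, negative is upstream), with circles for 13 cytoplasmic and triangles for 9 mitochondrial genes; the lower panel gives the percent of all genes with a region in bins of 100 bp. The dashed line is the lowest IDR signal, 69.0, and all but 2 synthetase summits lie left of 0.

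Many of these promoters face another gene. A TSS of another gene on the opposite strand lay within 1000 bp upstream of 15 of 17 cytoplasmic and 7 of 15 mitochondrial genes, 22 of 32 in all, against 39.6% of all protein-coding genes. This arrangement is a fact of the annotation and not of the ChIP-seq data. A pooled region was present at 15 of the 22 members with such a neighbour (68.2%, against 71.4% of all genes that have one) and at 7 of the 10 without (70.0%, against 49.7% of all genes that lack one). In 8 of the 22 members with a pooled region the TSS nearest to the summit belonged to another gene, namely at AspRS, GlnRS, GlyRS, TrpRS, TyrRS, ValRS, CysRS-m and LeuRS-m. The matching share over all genes is not given, so this count is not read as a trait of the family. The TrpRS, TyrRS and ValRS summits lay 1, 2 and 14 bp from a TSS of Vps16A, CG33158 and Kdm4B. Their regions at 116, 297 and 499 bp from the synthetase start are therefore closer to the neighbour. At GlnRS the summit was 60 bp from RIOK2 and 63 bp from GlnRS, which the position of a summit does not separate.

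For 12 amino acids the family holds both a cytoplasmic and a mitochondrial gene. Both genes had a pooled region for 4 amino acids (Arg, Cys, Ile and Ser), the cytoplasmic gene alone for 6 (Ala, Asn, Asp, Trp, Tyr and Val) and the mitochondrial gene alone for 2 (Leu and Met). Of these genes, AspRS, TrpRS, TyrRS, ValRS, CysRS-m and LeuRS-m had a summit nearer to a TSS of another gene. Among all members with a pooled region, the summit was nearest to the gene's own TSS at 7 of 13 cytoplasmic and 7 of 9 mitochondrial genes. The matching share over all genes is not given, so these counts describe the members only. For leucine, LeuRS-m had the highest signal of the family at 110 and LeuRS had none in the pooled list. LeuRS had its only region in replicate 6, at a signal of 7.59 and rank 29295 of 30000. For isoleucine, IleRS had 61.4 and IleRS-m 33.8. For arginine ArgRS had 41.2 and ArgRS-m 47.4. For serine, SerRS had 78.2 and SerRS-m 62.1, the latter below the lowest IDR signal of 69.0. The median strongest pooled signal, with unlisted genes below the list, was 39.7 for the 17 cytoplasmic and 26.3 for the 15 mitochondrial genes. In replicate 5 the median was 15.8 for cytoplasmic and 15.3 for mitochondrial genes, and in replicate 6 it was 22.1 for cytoplasmic and 10.6 for mitochondrial genes. Each of the replicate 5 medians was the lowest listed value of its class. Among listed genes alone the pooled order was reversed, with medians of 41.2 for 13 cytoplasmic and 47.4 for 9 mitochondrial genes. In the replicates it was not, at 21.4 and 20.0 in replicate 5 and 22.1 and 17.7 in replicate 6, cytoplasmic first.

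**Figure D4:**
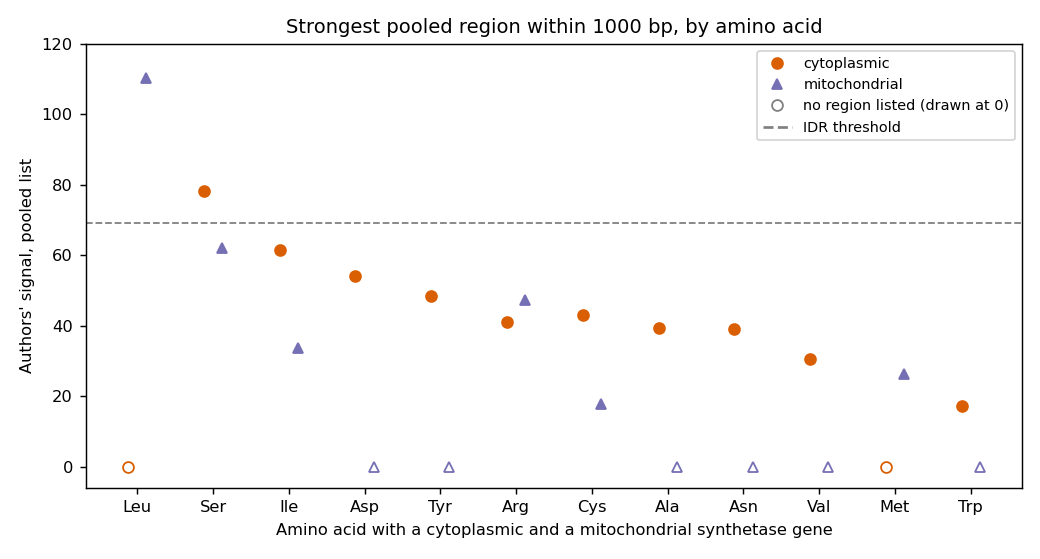
Authors' pooled signal (y axis) of the strongest region within 1000 bp of the cytoplasmic gene (circles) and the mitochondrial gene (triangles) for each of 12 amino acids (x axis); open symbols at 0 mark genes with no listed region and the dashed line is the lowest IDR signal. At serine only the cytoplasmic symbol is above the dashed line, while leucine has a mitochondrial region of 110 and no cytoplasmic one.

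Consensus sequences at the synthetase promoters were counted from 250 bases before to 50 after the gene start, on both strands. TGTTTAC, the FOXO core, was in the promoter of 1 member, GluRS-m (3.12%), against 9.19% of all protein-coding genes. It lay 34 bp from the GluRS-m summit, at chr3L:16417143-16417167 on the minus strand, shown here with the core, which reads as its reverse complement, in capitals.
GluRS-m: ctgtttgggGTAAACAaaaaaccgg

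TATCGATA was in 5 member promoters (15.6%, against 9.36% of all genes), those of AlaRS, ArgRS, IleRS, TrpRS and PheRS-m. GGTCACACT, bound by M1BP, a zinc finger protein of core promoters, was in 4 (12.5%, against 6.05%). CACGTG, the E-box that Myc binds, was in 2 (6.25%, against 4.2%), GAGAGAG in 1 (3.12%, against 5.87%) and TATAAA in 18 (56.2%, against 45.8%). TTGCATCA, the composite site of ATF4 and C/EBP factors, which in mammals drives several synthetase genes under amino acid shortage, was in none of the 32 and in 0.817% of all promoters. A match says only that the letters are there, and a miss only that they are not in this window. Around the IleRS summit, TATCGATA was centred 9 bp away, and around the TrpRS summit 47 bp away.
IleRS: ggaacctacTATCGATAtcgcgaacc
TrpRS: atttctcatTATCGATAtttttaaca
These runs are at chr3L:22288614-22288639, plus strand, and chr3R:9266960-9266985, minus strand, and the capitals mark the element.

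Of 12 listed genes that work with the synthetases or are related to them, 1 had an IDR summit within 1000 bp (8.33%, against 7.71% of all protein-coding genes) and 8 had a pooled region (66.7%, against 58.3%), both near the background. The IDR peak was at GluProRS, the bifunctional glutamyl and prolyl enzyme whose symbol the rule did not match. It had a pooled signal of 91.1 (rank 703), 191 bp upstream of GluProRS and 69 bp from the TSS of its opposite neighbour AP-1sigma, and ranked 1225 in replicate 5 and 665 in replicate 6. The phenylalanyl subunit genes were low or unlisted, with 21.9 at beta-PheRS and no pooled region at alpha-PheRS. Slimp, a mitochondrial paralogue of seryl-tRNA synthetase, had 53.9, with the summit 9 bp downstream of its TSS, and ranked 1366 in replicate 5 and 4579 in replicate 6. GatA, a subunit of the mitochondrial glutamyl-tRNA amidotransferase, had 66.2 (rank 1587), 97 bp upstream and 23 bp from the TSS of P5cr, while GatB had 29.7 and GatC none. Of the multisynthetase complex scaffolds, AIMP2 had 20.3 and AIMP1 and AIMP3 had no pooled region. The enzymes that in mammals sit in that complex, 7 of them among the members, had a pooled region at ArgRS, AspRS, GlnRS and IleRS and none at LeuRS, LysRS and MetRS (57.1%, against 58.3% of all genes). Of the genes that respond to uncharged transfer RNA, crc, the fly ATF4, had 58.4 in its own intron, 200 bp upstream of a TSS, and Gcn2, its upstream kinase, had 19.9.

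Other gene groups of protein synthesis are given beside the synthetases for the IDR list, in which the share of all protein-coding genes was 7.71%. Within 1000 bp, 2 of 32 synthetase genes had an IDR summit (0.766 to 20.8), against 26 of 92 cytoplasmic ribosomal protein genes (28.3%, 95% Clopper-Pearson interval 19.4 to 38.6). It lay near 9 of 73 mitochondrial ribosomal protein genes (12.3%) and 4 of 44 initiation factor genes (9.09%). The median strongest pooled signal, with unlisted genes below the list, was 33.8 for synthetases, 48.0 for cytoplasmic ribosomal proteins, 28.9 for mitochondrial ribosomal proteins and 25.9 for initiation factors. The interval of the synthetase share overlapped that of each of these groups, but only narrowly that of the cytoplasmic ribosomal protein genes. Overlap of intervals does not measure a difference, and no difference was tested.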

How the data were processed

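Per the deposited notes and names, the authors made relaxed lists of peaks and background as input for IDR, for each replicate and for the pool, and an IDR list. Which aligner and caller they ran is not given in the sources used here. In the deposited lists, signal is the caller's value per region on an unstated scale, and the deposited significance is −log10 of a q-value. Only the dm6 lists were used, and control libraries were not analysed here. Every region fits the chromosome lengths of RefSeq Release 6. The depth of the libraries is unknown, so intervals cover counting error over genes only.

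Genes and TSSs came from Ensembl release 115, without transposable elements, on 6 chromosomes. A gene was counted for a list when a TSS of it had a summit at most 1000 bp away. Sites were matched between lists within 150 bp. A q-value threshold of 0.01 was also used. Every member is named: those with an IDR summit, and the 3 highest others per class, with fuller values. No tests were run, because there is 1 group of 2 replicates and genes are not replicates. The members and gene lists were chosen with earlier results of these data known. Assignment was tested on artificial regions. The tools were Python 3.11.15, SciPy 1.17.1 and Matplotlib 3.10.9. Alternatives were the distance, interval overlap, gene starts, peak ranks, single replicates, q-value and motif window.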

Additional observations from a re-analysis of the deposited data

How the results depend on the processing

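Over 90 alternative values, 66 stayed within 1.5 times the value reported or, for a consensus sequence, within its interval, and 24 did not. The count of members with an IDR summit, 2, became 1 within 500 bp, 1 in the 713 highest IDR peaks and 1 where the nearest TSS had to be the gene's own. With the 1427 highest regions of a single replicate in place of the IDR list, which is a different call, it was 3 either way. Only LeuRS-m was among the 3 for both replicates. For cytoplasmic genes, 1 became 2 within 2000 bp, 2 by interval overlap and 0 in the 713 highest peaks, and 1 to 2 with a single replicate. For mitochondrial genes, 1 became 0 within 500 bp and 0 by the gene's own nearest TSS, where the LeuRS-m summit no longer counts, and 1 to 2 with a single replicate. A q-value of at most 0.01 lowered the pooled count to 10 (5 cytoplasmic, 5 mitochondrial), replicate 5 to 1 (0 and 1) and replicate 6 to 15 (10 and 5). Among all protein-coding genes these calls became 2442 in the pooled list, 814 in replicate 5 and 4212 in replicate 6, and the 713 highest IDR peaks marked 548. GAGAGAG was near 0 of 22 pooled summits. No paired analysis was possible because both samples belong to 1 group. Unknown depth limits what an unlisted region shows.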
